A study of Mus musculus with 6 samples.

Results

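The EGF receptor family and its ligands were examined in subcutaneous tumours of KPC1199 cells, a mouse line of pancreatic ductal adenocarcinoma, grown in lactating and in control mice. The members are the 4 receptor genes Egfr, Erbb2, Erbb3 and Erbb4 and the 6 ligand genes Areg, Ereg, Hbegf, Tgfa, Btc and Epgn, chosen by name and not by level. Of these 10 genes, 9 had at least 1 probe set that the platform annotation gives to a single gene, with 20 such probe sets among 34958 on the array. Areg, the amphiregulin gene, was not analysed here. The lactation group held 3 tumours, from mice injected with the cells when pregnant or at the start of nursing, and the control group held 3 tumours from mice that the labels call only control. Every mouse in both groups carried the same transplanted line, was of the same age, which the labels do not state, and was killed 20 days after injection. The labels give no strain or parity, and they do not say which lactation mice were injected while pregnant. Each whole tumour, host cells included, was measured on its own Affymetrix array, so fewer cells of a type and less RNA per cell cannot be told apart.

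The receptors of this family are cell surface tyrosine kinases that act as pairs once a ligand binds. Erbb2 has no ligand of its own and serves as a partner, Erbb3 has little kinase activity and signals through its partner, and Erbb3 and Erbb4 bind neuregulins. The ligands are made as membrane-bound precursors that proteases of the ADAM family release, and in pancreatic cancer the receptors feed the RAS and ERK pathway.

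No member above the level filter differed between tumours of lactating and control mice beyond the spread between arrays. Epgn, a dim gene below that filter, had groups that did not overlap. Egfr had a lower mean in lactation, and Erbb2, Erbb3, Ereg, Hbegf, Tgfa and Btc had higher means, by at most 0.24 on the log2 scale in either direction. In limma across 11622 genes, 0 of the 7 members above the level filter had a Benjamini-Hochberg adjusted p under 0.05, and 0 had an unadjusted p under 0.05. Over all genes 0% passed the adjusted threshold and 2.27% the unadjusted threshold. Erbb4 and Epgn lay below the filter, which asked for a signal at or above the array median on at least 3 arrays. For all 9 measured members the difference between the groups was smaller than the range within at least 1 of the groups. The share of all genes that meet this measure is not given here, so this count does not set the members apart. Groups that do not overlap can also meet this measure, as those of Epgn did. The 95% intervals of the 7 tested members all held 0, and the bound farthest from 0 was 0.88, for Erbb3, so a 2-fold change in either direction lay outside each interval. All differences are of log2(signal + 16), lactation minus control, and are understated for dim genes.

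Array medians ranged from 99.3 to 111 signal units, and the precision is limited by having 3 arrays a group. Epithelial tissue was looked for with 15 markers of ductal epithelium, all of which passed the level filter. The keratinocyte marker Krt14 passed it too, at 3521 to 7734, so the filter does not tell a ductal type from other epithelium. Epcam, an adhesion protein of epithelial cells, measured 7016, 5029 and 9208 in lactation and 6651, 4746 and 6976 in controls. Other tissue was present unevenly. The summed signal of 11 mast cell markers moved with the groups, at 2512 to 3516 in lactation and 5446 to 9466 in controls. All 10 above the level filter had a negative difference, with a median of -1.09. Of these 10, 7 had groups that did not overlap, where 6.91% of all genes tested did, and 0 passed the adjusted threshold. Hdc, the marker below the filter, went the other way, with a difference of 0.75 in the fit with no filter. The part of mast cells in the values of the members was not tested. Summed signals of 6 skeletal muscle genes ran from 11079 to 63362 in lactation and from 6964 to 59528 in controls, with the high values on lactation replicate 1 and control replicate 2. For 7 milk and mammary genes the summed signals of the lactation arrays were 143, 1224 and 182, against 176, 190 and 160 on the control arrays, so lactation replicate 2 stood alone. The casein gene Csn2 measured 333 on that array and at most 27.0 on the others.

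**Figure D1:**
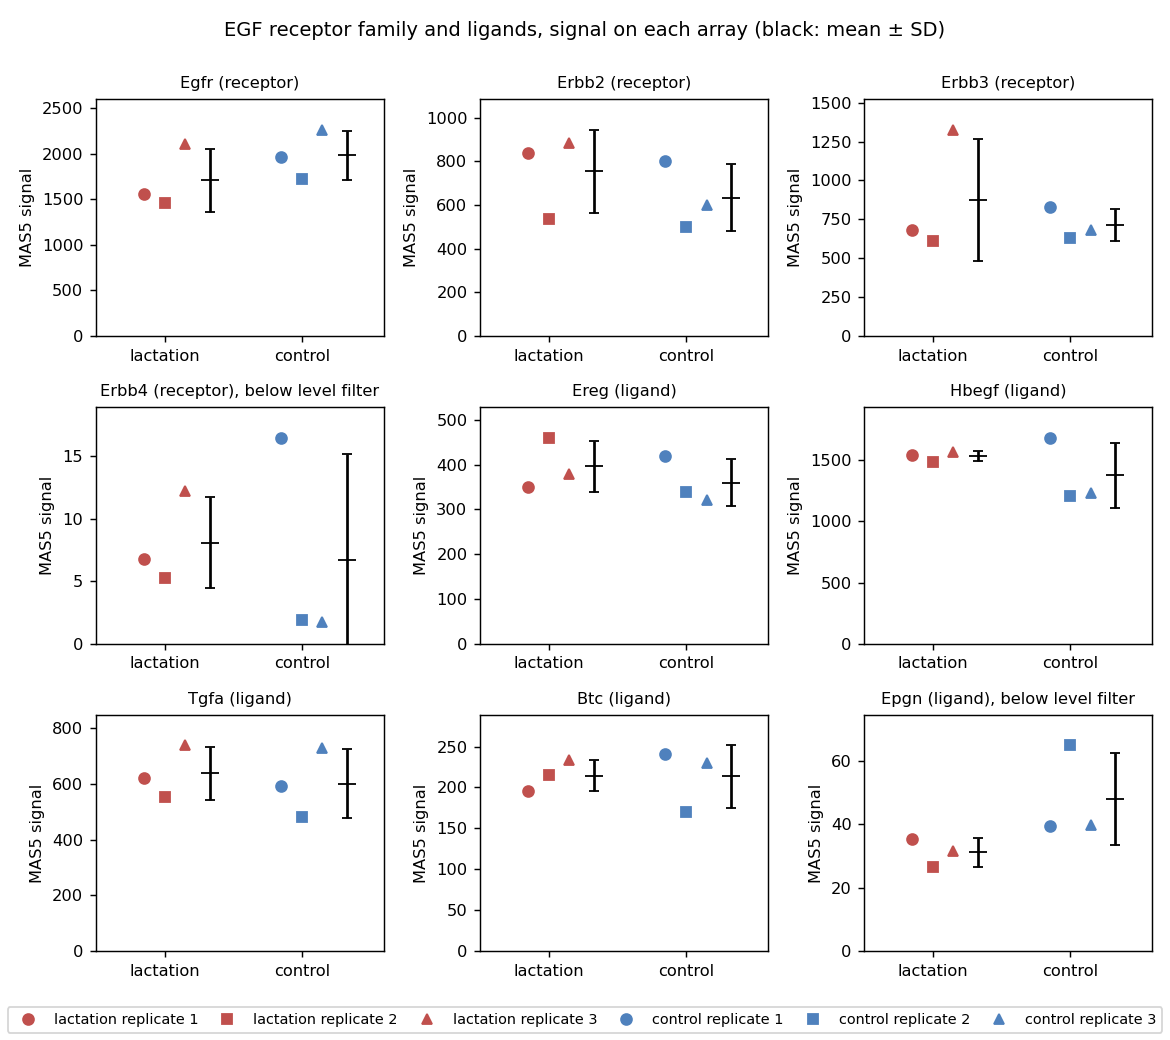
MAS5 signal (linear, vertical axis from 0) of the 9 measured members on each array, 1 panel per gene, with lactation left and control right, replicates as symbols and the mean ± SD of 3 arrays in black. The groups overlap in every panel but that of Epgn, a gene below the level filter.

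Egfr encodes the receptor that binds all 6 ligands of the list. Its brightest probe set, 1435888_at, measured 1560.3, 1456 and 2108 in lactation and 1972, 1724 and 2262 in controls. Lactation replicates 1 and 2 were the lowest arrays, while lactation replicate 3 lay between control replicates 1 and 3, so the groups overlapped. The log2 difference was -0.23 with a standard error of 0.16 and a 95% interval from -0.61 to 0.16 (limma adjusted p = 0.9998). Its size depended on single arrays, at -0.12 when lactation replicate 2 was left out, -0.13 for control replicate 3 and -0.39 for lactation replicate 3.

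Egfr is the member with the most probe sets, and these could be set beside each other. Of its 7 probe sets 4 were at or above the array median on all 6 arrays, and all 4 had a lower mean in lactation, with log2 differences of -0.23, -0.19, -0.27 and -0.18. Of these, 1460420_a_at had groups that did not overlap, with 469, 419 and 435 in lactation and 482, 507 and 625 in controls (limma unadjusted p = 0.0737; adjusted p = 0.9997 over all single-gene probe sets). Probe sets of a gene are read from the same tumours on the same arrays and are not replicates. Those of Egfr come from several source sequences and need not read the same transcripts. The other 3 Egfr probe sets were below the array median on every array, and their differences of -0.40, -0.11 and 0.003 have standard errors from 0.28 to 0.43. The 250 bases before the annotated start of Egfr and of Erbb2 are shown because these 2 receptors had means on opposite sides of the controls. Both are from RefSeq on build GRCm38.p6, plus strand, Egfr at chr11:16751953-16752202 and Erbb2 at chr11:98412234-98412483, and capitals mark matches on either strand. The motifs searched were the GC box, spelled GGGCGG, the TATA box, spelled TATAAA, and the CCAAT box, spelled as named.
Egfr: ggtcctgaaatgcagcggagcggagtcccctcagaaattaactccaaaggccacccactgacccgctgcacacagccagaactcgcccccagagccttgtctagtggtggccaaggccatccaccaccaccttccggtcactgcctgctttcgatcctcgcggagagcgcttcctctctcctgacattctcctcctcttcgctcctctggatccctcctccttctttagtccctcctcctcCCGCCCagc
Erbb2: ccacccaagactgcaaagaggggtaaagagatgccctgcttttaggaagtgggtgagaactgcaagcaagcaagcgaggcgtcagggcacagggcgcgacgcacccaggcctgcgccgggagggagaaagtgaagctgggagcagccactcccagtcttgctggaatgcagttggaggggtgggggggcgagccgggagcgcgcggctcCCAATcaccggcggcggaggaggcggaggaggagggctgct
The Egfr window had a GC content of 60.8% and held a GC box match on the minus strand, and the Erbb2 window had a GC content of 66.0% and held a CCAAT box match. Neither window held the TATA box. Over the same 250 bases of 32851 RefSeq promoters, 32.7% held the GC box, 33.8% the CCAAT box and 12.4% the TATA box, and no matches overlap in the windows shown. A match in letters is a description and says nothing of binding.

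Erbb2, the receptor with no ligand of its own, measured 840.0, 536 and 884 in lactation and 801, 498 and 599 in controls. The arrays fell into a high and a low set that cross the groups, with lactation replicates 1 and 3 and control replicate 1 high. The log2 difference was 0.24 with a standard error of 0.24 and a 95% interval from -0.32 to 0.80 (limma adjusted p = 0.9998). Leaving out lactation replicate 2 gave 0.46 and leaving out control replicate 1 gave 0.42, while the other omissions that moved it by over 1.5 times gave 0.15 (lactation replicate 1), 0.11 (lactation replicate 3) and 0.09 (control replicate 2). The same 3 arrays had the highest mean level of the 15 ductal epithelium markers, on the log2(signal + 16) scale. That level was 12.12, 11.80 and 12.46 in lactation and 12.10, 11.59 and 11.74 in controls, so the groups overlapped. All 15 markers had a positive difference, where 48.3% of all genes tested did. Of the 15, 0 passed the adjusted threshold and 1 had groups that did not overlap, where 6.91% of all genes tested did. With the 2 arrays highest in muscle genes left out together, the Erbb2 difference was -0.01. The part of the epithelial level in the values of Erbb2 was not tested.

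Erbb3, which signals through its partners, measured 681, 612 and 1323 in lactation and 827, 633 and 682 in controls with its brighter probe set, 1434606_at. Lactation replicate 3 was above every other array, and the other lactation arrays lay within or below the control range. The log2 difference of 0.21 had a standard error of 0.28 (limma adjusted p = 0.9998), and it was -0.13 when lactation replicate 3 was left out. Of the other arrays, lactation replicates 1 and 2 and control replicates 1 and 2 moved it by over 1.5 times, to 0.34, 0.41, 0.32 and 0.13. Lactation replicate 3 also had the highest level of the ductal epithelium markers. Schwann cells also use Erbb3. Of 3 Schwann cell markers with a probe set, the summed signal was 838, 772 and 951 in lactation and 916, 866 and 841 in controls, most of it from Mbp. Sox10, which did not pass the level filter, was highest on lactation replicate 3, at 121. S100b was highest on control replicate 1, at 177. The part of Schwann cells in the Erbb3 values was not tested. The second probe set, 1452482_at, was below the array median everywhere, at 4.23 to 23.8.

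Erbb4, a receptor for neuregulins and for Hbegf and Btc that milk-producing mammary cells are known to use, was close to the bottom of the scale. Its only single-gene probe set measured 6.79, 5.25 and 12.2 in lactation and 16.5, 1.88 and 1.74 in controls. All 6 values lay low on their arrays, at percentiles from 3.0 to 18.7. In the fit with no level filter the difference was 0.14 with a standard error of 0.28, and it was 0.74 with an added constant of 1 in place of 16. Lactation replicate 2, the array with casein signal, had 5.25, which lay among the other values.

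**Figure D2:**
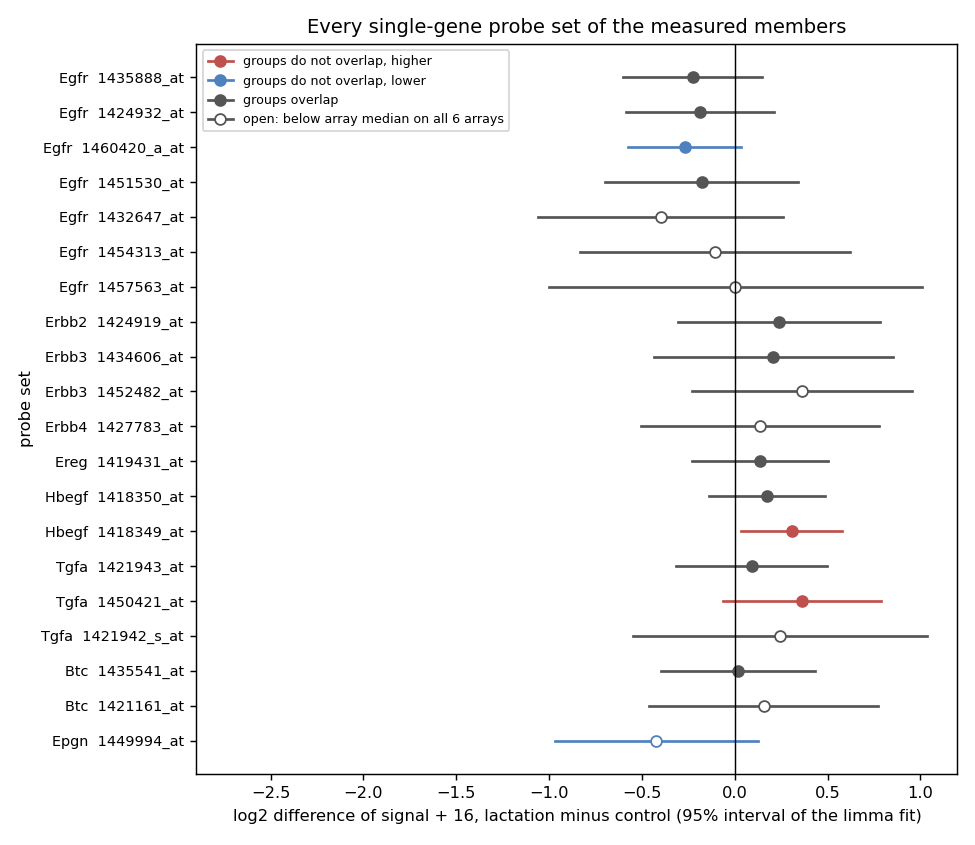
Log2 difference of signal + 16, lactation minus control, of all 20 single-gene probe sets of the members (points) with 95% intervals of the limma fit over 34958 probe sets (lines); open points were below the array median on all 6 arrays. All 4 bright Egfr probe sets lie left of 0, all probe sets of Hbegf, Tgfa, Erbb2 and Erbb3 lie right of 0, and 1 interval, of Hbegf 1418349_at, leaves out 0.

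Hbegf encodes heparin-binding EGF-like growth factor, a ligand of Egfr and Erbb4 that macrophages and epithelial cells make. Its brighter probe set, 1418350_at, measured 1547, 1490.2 and 1569.8 in lactation and 1685, 1211 and 1233 in controls. The lactation arrays lay close together, and the highest array of all was control replicate 1, so the groups overlapped. The log2 difference was 0.17 with a standard error of 0.14 and a 95% interval from -0.15 to 0.50 (limma adjusted p = 0.9998). Each control array moved it by over 1.5 times, to 0.33 when control replicate 1 was left out, 0.09 for control replicate 2 and 0.10 for control replicate 3.

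The second Hbegf probe set, 1418349_at, measured 1057, 995 and 984 in lactation and 949, 726 and 785 in controls, and here the groups did not overlap. Its log2 difference was 0.31 with a standard error of 0.12 (limma unadjusted p = 0.0317; adjusted p = 0.9997 over all single-gene probe sets). It was the only one of the 20 member probe sets with an unadjusted p under 0.05, where 3.23% of all 34958 probe sets had one. The count was 0 when lactation replicate 1, lactation replicate 2 or control replicate 3 was left out, 3 for control replicate 1, and 0 after centring arrays on their medians. Of the 10 macrophage markers 9 had a negative difference and their median was -0.25, and their summed signal ran from 43236 to 56572 in lactation and from 53968 to 61101 in controls. The part of macrophages in the Hbegf values was not tested.

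Tgfa, transforming growth factor alpha, binds Egfr. Its brightest probe set, 1421943_at, measured 622, 552 and 737 in lactation and 592, 481 and 728 in controls. The groups overlapped throughout, and the log2 difference was 0.09 with a standard error of 0.18 (limma adjusted p = 0.9998). The sign turned when control replicate 2 was left out, at -0.05, and for lactation replicate 3, at -0.02; for control replicate 3 and lactation replicate 2 the value was 0.24 and 0.19. A dimmer probe set, 1450421_at, measured 159, 143 and 171 in lactation and 139, 116 and 104 in controls, with no overlap and a difference of 0.36 (limma unadjusted p = 0.0847; adjusted p = 0.9997). The probe sets of Tgfa thus differed in whether the groups overlapped, while all 3 had a positive difference.

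Ereg encodes epiregulin, a ligand of Egfr and Erbb4. It measured 351, 459.8 and 378 in lactation and 419, 338 and 321 in controls. Lactation replicate 2 was the highest array and control replicate 1 the next, and the log2 difference was 0.14 with a standard error of 0.16 (limma adjusted p = 0.9998). The difference was 0.03 when lactation replicate 2 was left out, 0.25 for control replicate 1, 0.21 for lactation replicate 1 and 0.06 for control replicate 3.

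Btc, betacellulin, binds Egfr and Erbb4 and measured 195, 215 and 233 in lactation and 240.4, 170.1 and 229.8 in controls. All lactation values lay inside the control range, and the log2 difference was 0.02 with a standard error of 0.18, a sign that turned under several settings. Its second probe set was below the array median on every array.

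Epgn, epigen, is a ligand of Egfr known from skin and other epithelia. It measured 35.4, 26.4 and 31.6 in lactation and 39.4, 64.8 and 39.7 in controls, under the array median on all 6 arrays. The groups did not overlap, as was the case for 3.52% of all genes in this direction with no level filter. In that fit the log2 difference was -0.42 with a standard error of 0.24 and a 95% interval from -0.98 to 0.14 (limma unadjusted p = 0.118; adjusted p = 0.9996). It was -0.24 without control replicate 2, the highest array, and -0.23 with an added constant of 64. The 7 keratinocyte markers summed to 5663 to 10582 in lactation and 5121 to 9171 in controls, most of it from Krt14. Krt5, a keratin of basal keratinocytes, measured 347, 331 and 838 in lactation and 269, 242 and 147 in controls, with no overlap and a difference of 1.06 (limma unadjusted p = 0.0284; adjusted p = 0.9998). The other markers did not share this: Krt14, Trp63 and Krt10 had differences of 0.27, 0.16 and -0.05 with groups that overlapped. Krt1, Lor and Ivl did not pass the filter, and their groups overlapped too. The part of keratinocytes in the Epgn values was not tested. The 250 bases before the annotated start of Epgn are shown beside the receptor windows. They lie on RefSeq build GRCm38.p6 at chr5:91027267-91027516, plus strand, with matches to the same motifs in capitals.
Epgn: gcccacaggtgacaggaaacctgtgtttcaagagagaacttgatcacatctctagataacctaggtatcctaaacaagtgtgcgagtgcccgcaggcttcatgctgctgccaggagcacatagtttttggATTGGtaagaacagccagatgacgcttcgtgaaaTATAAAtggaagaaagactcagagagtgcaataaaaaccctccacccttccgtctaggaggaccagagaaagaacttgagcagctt
This window had a GC content of 46.8%, against a median of 52.4% over all promoters, and held the TATA box on the plus strand and the CCAAT box on the minus strand. A promoter was listed for 7 of the 10 members. Of those not shown, Tgfa, with a GC content of 69.2%, held the GC box and no TATA box, and Areg, with 57.2%, held both. Btc, with 59.6%, and Erbb4, with 54.0%, held none of the motifs, so the windows did not divide into receptors and ligands.

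Over the members as a set, 6 of the 7 genes above the level filter had a positive difference and their median was 0.14, beside 48.3% positive and a median of -0.01 over all 11622 genes tested. This count rested on single arrays: it was 3 of 7 with a median of -0.02 when lactation replicate 3 was left out, and 4 of 7 with a median of 0.09 for control replicate 2. With lactation replicate 1 and control replicate 2, the arrays highest in muscle genes, both left out, it was 3 of 7 with a median of -0.01. Leaving out control replicate 1 kept 6 of 7 and gave a median of 0.25. The 3 receptors ranged from -0.23 to 0.24 and the 4 ligands from 0.02 to 0.17. None of the 7 had groups that did not overlap, where 6.91% of all genes tested did. Among the 20 probe sets 2 had groups that did not overlap with lactation higher and 2 with lactation lower, where 4.29% and 3.63% of all single-gene probe sets did.

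The pattern across single arrays crossed the groups. Control replicate 2 was the lowest array for 4 of the 9 members, Erbb2, Hbegf, Tgfa and Btc, and the highest for Epgn. That array had the lowest ductal epithelium level, 11.59, and the second highest skeletal muscle level, 13.12. Lactation replicate 2 was the lowest array for Egfr, Erbb3 and Epgn and the highest for Ereg. Control replicate 3 was the highest array for Egfr, and it also had the highest fibroblast marker level, 13.22, beside 12.56 to 12.82 on the other arrays. The part of muscle, fibroblasts and epithelium in these orders was not tested.

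**Figure D3:**
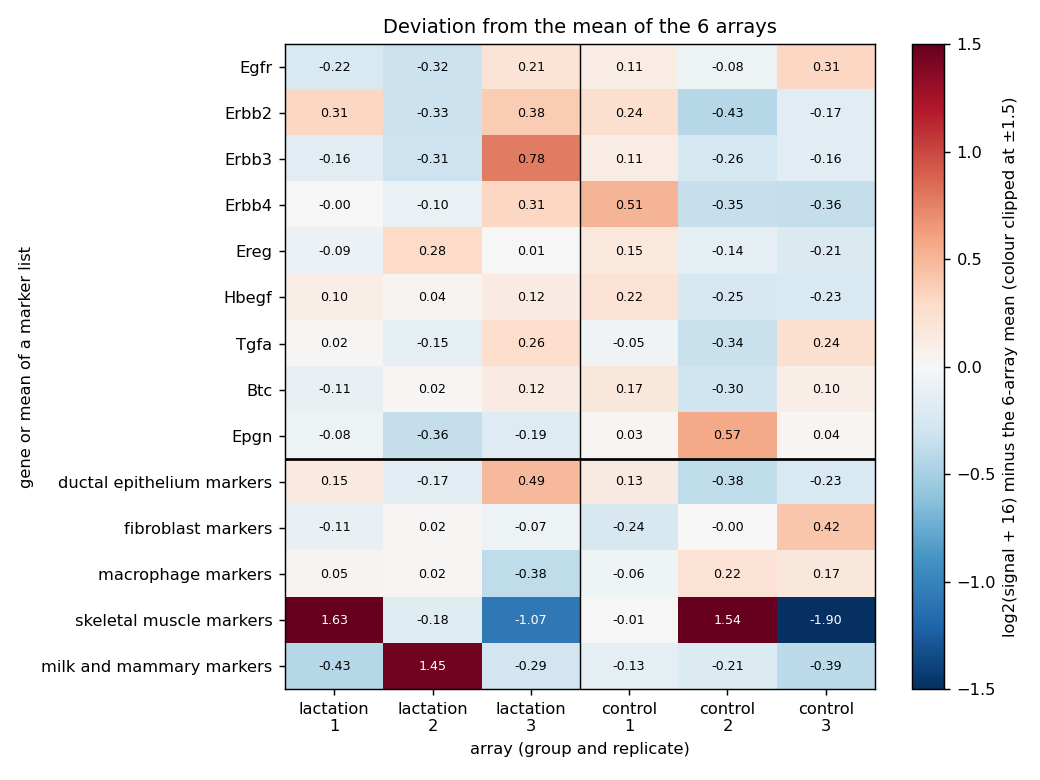
Deviation of log2(signal + 16) from the mean of the 6 arrays for the 9 members (above the line) and for the mean of 5 marker lists (below it), with arrays in columns, lactation left. Erbb2 is above its mean on lactation replicates 1 and 3 and control replicate 1, as are the ductal epithelium markers, and muscle markers peak on lactation replicate 1 and control replicate 2.

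Genes whose values followed a member most closely were found by Pearson's r over the 6 arrays among the 11621 other genes tested. Ppfia1 was nearest to Egfr with an r of 0.991, then Zc3h10 and Ppp2r2a. Fuom was nearest to Erbb2 with 0.992, then Hexim1 and Nck2. Nle1 was nearest to Erbb3 with 0.989, then Dag1 and Ltk, and Taf1a was nearest to Hbegf with 0.994, then Snw1 and Med1. With only 6 arrays, which share their scaling, an r of at least 0.9 was reached by 72 genes for Egfr, 172 for Erbb2, 97 for Erbb3 and 158 for Hbegf, so these names describe the arrays and no more. Among the members, Erbb2 and Hbegf were each other's nearest with 0.763.

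Other genes of the pathway were read from lists. Of 62 genes in 6 lists of ligands, shedding, inhibitors, adaptors, ERK feedback and ERK targets, 56 passed the level filter, 30 with a positive and 26 with a negative difference. In limma 0 of the 56 passed the adjusted threshold and 3 the unadjusted one, Lrig1, Cblc and Plaur, where 2.27% of all genes tested passed the unadjusted one. Their median was 0.02, and 3.6% had groups that did not overlap, where 6.91% of all genes tested did.

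Among the other ligands, Nrg1, the neuregulin that binds Erbb3 and Erbb4, measured 229, 253 and 295 in lactation and 195, 202 and 244 in controls. The groups overlapped through control replicate 3, and the log2 difference was 0.26 with a standard error of 0.16 (limma adjusted p = 0.9998). Nrg2, a second neuregulin, had 123, 186 and 131 in lactation and 89.3, 240.3 and 166 in controls, a difference of -0.08. Egf itself, which binds Egfr, was at or above the array median on 1 array of each group and did not pass the filter. It measured 155, 84.7 and 72.2 in lactation and 92.6, 112 and 74.5 in controls. Nrg3 and Nrg4 were below the array median on every array, at 6.88 to 27.5 and at 33.7 to 87.7.

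Of the 9 genes of ligand release, 4 had a positive and 5 a negative difference, with a median of -0.03. Adam17, the main protease that releases Tgfa, Hbegf and Ereg, measured 2379, 2282 and 2459.8 in lactation and 2398, 2389 and 2497 in controls, with groups that overlapped. Its difference of -0.03 had a standard error of 0.07. Adam10, the protease that releases Btc, averaged 5316 ± 708 in lactation and 4901 ± 305 in controls (SD, n = 3 each). The largest differences were 0.34 for Rhbdf2, an inactive rhomboid that carries Adam17 to the surface, -0.22 for Adam12, a metalloprotease of stroma, and -0.19 for Timp3, an inhibitor of Adam17, all with groups that overlapped. Adam12 had 5481 on control replicate 3, the array highest in fibroblast markers, and 1867 to 3072 elsewhere.

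The 14 genes listed as receptor inhibitors do not all act only to restrain the receptors. Of these, 5 had a positive and 9 a negative difference, with a median of -0.10. That median was -0.01 when control replicate 3 was left out, -0.15 for lactation replicate 2, -0.05 for lactation replicate 3 and -0.06 for lactation replicate 1. Lrig1, a membrane protein that promotes receptor breakdown, measured 1382, 1141 and 1096 in lactation and 1769.5, 1528 and 1378 in controls. Only lactation replicate 1 and control replicate 3 crossed, at nearly the same value, and the log2 difference was -0.37 with a standard error of 0.13 (limma unadjusted p = 0.0274; adjusted p = 0.9998). Cblc, a ubiquitin ligase of epithelial cells that acts on Egfr, measured 567, 440.0 and 560.0 in lactation and 466, 350.0 and 335 in controls. Its difference was 0.44 with a standard error of 0.17 (limma unadjusted p = 0.0359; adjusted p = 0.9998), and the groups overlapped. Lrig3, a relative of Lrig1, had a difference of -0.26. Errfi1, an inhibitor that binds the Egfr kinase, averaged 3861 ± 357 in lactation and 3829 ± 479.7 in controls (SD, n = 3 each). This gene was chosen after its values were seen, as were Adam17 and Adam10. Ptpn1, a phosphatase of the receptors, was the 1 gene of this list whose groups did not overlap, with a difference of -0.14.

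Of the 13 adaptor and RAS genes above the filter, 7 had a positive and 6 a negative difference, with a median of 0.02 and none beyond 0.12. The largest were 0.12 for Nf1, a RAS inhibitor, 0.10 for Sos2, a RAS activator, and -0.09 for Ptpn11, a phosphatase needed for RAS activation, all with groups that overlapped.

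Of the 8 genes of ERK feedback, 5 had a positive and 3 a negative difference, with a median of 0.10. That median was -0.04 when control replicate 3 was left out, 0.06 for lactation replicate 2, and 0.18 for control replicate 1. Dusp4, a phosphatase of ERK, averaged 503 ± 136 in lactation and 366 ± 62.2 in controls (SD, n = 3 each). Spry2, an inhibitor of the RAS pathway, averaged 816 ± 21.7 in lactation and 650.4 ± 196 in controls, and Spry4 had a difference of 0.36. All 3 had groups that overlapped.

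Of the 10 ERK target genes, 8 had a positive and 2 a negative difference, with a median of 0.14, which was 0.04 when lactation replicate 3 was left out. Plaur, the urokinase receptor, measured 1495, 1559 and 1847 in lactation and 1434, 1307 and 1249.5 in controls, with no overlap. Its log2 difference was 0.29 with a standard error of 0.11 (limma unadjusted p = 0.0330; adjusted p = 0.9998). Egr1, an immediate early transcription factor, measured 6976, 7958 and 9308 in lactation and 8014, 5134 and 5768 in controls, a difference of 0.37. Control replicate 1 lay among the lactation arrays for Egr1. Ier3, a stress-induced early gene, had a difference of 0.21 with groups that overlapped.

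**Figure D4:**
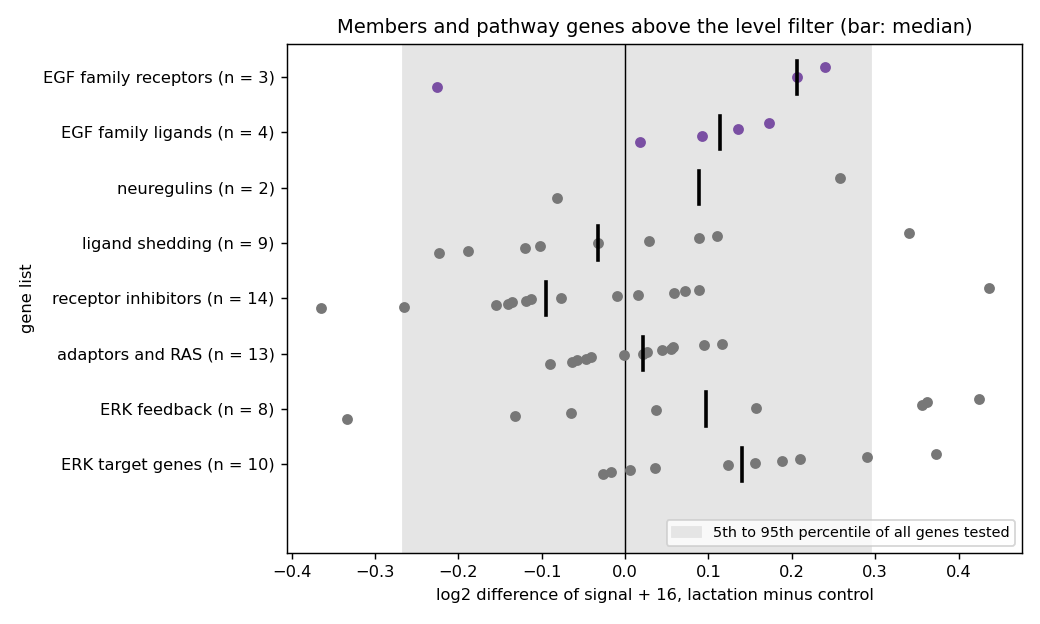
Log2 difference of signal + 16, lactation minus control, of the members and of the pathway genes above the level filter, 1 point per gene and 1 row per list, with the median as a bar; the grey band spans the 5th to the 95th percentile of all genes tested, -0.27 to 0.29. All receptor and ligand points lie inside the band.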

How the data were processed

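Total RNA of 6 tumours was labelled with biotin as cRNA for Affymetrix arrays, per the labels' protocols. The deposited table holds a linear intensity for each of 45101 probe sets and each tumour. The submitters' processing notes name MAS5 and no version. The deposited intensity values had a mean of 500.0 on each array after trimming 2% at each end, so scaling had been done. Neither scanner files nor detection calls were used. Names came from the platform annotation: 34958 probe sets had 1 symbol, 932 several and 9211 none. Entrez identifiers tied 34754 of the single-symbol probe sets to RefSeq, and 0 symbols changed.

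Values were taken as log2(signal + 16). The probe set of highest mean signal stood for each of 18194 genes, and genes with at least 3 arrays at or above the array median were kept. Lactation was compared with control by limma 3.58.1 (R 4.3.3), using lmFit and eBayes with an intensity trend and Benjamini-Hochberg adjustment at 0.05. The median standard error was 0.137. All single-gene probe sets were also fitted with no filter, and members below the filter took their values from a fit of genes with no filter. On 5 simulated tables of 11622 genes with 200 changed, the fit recovered 65.8% of 2-fold and 93.2% of 4-fold changes with 8.6 false calls per table on average. Each gene of those tables was drawn on its own, without the variation that genes share across the real arrays. The rates are therefore a check of the code and not the power of the comparison made here.

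The rule for names took all members, Egf, Nrg1 to Nrg4, the first 2 genes of marker lists and up to 3 genes of each other pathway list with the largest difference. The text does not follow it in full for markers. Not every marker list is shown, and those shown are given mainly as sums or levels, with few of the first genes named. Ptpn1, Errfi1, Adam17 and Adam10 were named outside the rule. So were the mast cell marker Hdc, the Schwann cell markers Mbp and S100b, and the keratinocyte markers besides Krt5 and Krt14. The members and lists were chosen with earlier results of these data known. Tables were handled in pandas 2.3.3 and numpy 2.4.6 (Python 3.11.15), and figures drawn in matplotlib 3.10.9. The alternatives were quantile normalization, median centring, other constants, filters and probe set rules, fits with no trend, robust or with array weights, a block by replicate number, and leaving out arrays.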

Additional observations from a re-analysis of the deposited data

How the results depend on the processing

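The count of genes called was 0 under each of the 18 alternatives run, as was the count of members called, and the count of member probe sets called was 0 under each of its 15. At an unadjusted p under 0.05, limma gave 264 of 11622 genes, from 138 to 651 with 1 array left out, and 0 or 1 of the members. For member probe sets this count was 1, and from 0 to 3 over the alternatives. Leaving out lactation replicate 1 and control replicate 2 together, the arrays highest in muscle genes, was chosen after seeing the data. Of 154 values of single members under alternatives, 142 kept their direction and 12 turned, all with adjusted p values of at least 0.874 in these fits. With 1 array left out, Erbb3 ranged from -0.132 (lactation replicate 3 out) to 0.414, Erbb4 from -0.012 (control replicate 3 out) to 0.424, Tgfa from -0.053 (control replicate 2 out) to 0.238 and Btc from -0.126 (control replicate 2 out) to 0.105. Erbb4 was also negative for control replicate 2, at -0.006, and for lactation replicate 3 Tgfa was -0.016 and Btc -0.040. Without the 2 muscle-rich arrays Erbb2 was -0.008, Tgfa -0.041 and Btc -0.065. Btc was -0.005 after quantile normalization and -0.028 with medians centred. Egfr, Ereg, Hbegf and Epgn kept their sign in every alternative run, Egfr from -0.385 to -0.121 and Hbegf from 0.085 to 0.326. Centring moved the median of all genes to -0.051 from -0.005. The median of adaptor and RAS genes turned to -0.025 after centring and to -0.049 when lactation replicate 2 was left out, and that of ERK feedback genes to -0.043 for control replicate 3. Smaller sign changes of these medians were -0.017 for adaptor and RAS genes when probe sets were averaged per gene, -0.011 for the same list when control replicate 1 or 3 was left out, and 0.01 for ligand release for control replicate 3. With medians centred, 4028 of 11622 genes had a positive difference, against 5616 without centring, as did 5 of the 7 members above the filter, and the members' count was 3 to 6 of 7 with 1 array left out. The cause of these changes was not tested, other than that fewer arrays entered where arrays were left out. Same-numbered arrays of the 2 groups had deviations correlated at 0.143, -0.084 and 0.268, and lactation replicate 1 was closest to control replicate 2 at 0.46. Those 2 arrays were the highest in muscle genes, so the correlations cannot decide whether the numbers pair the samples. With the replicate block 0 genes and 0 members were called, and 290 genes had an unadjusted p under 0.05. Values below the array medians, as for Erbb4 and Epgn, moved most with the added constant.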
